A study of Mus musculus with 5 samples.

Results

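The 10 genes described here belong to the pathway by which cells display peptides on MHC class I molecules. They are the classical heavy chains H2-K1 and H2-D1, their light chain B2m, the peptide transporter subunits Tap1 and Tap2, the loading factor Tapbp, the immunoproteasome subunits Psmb8, Psmb9 and Psmb10, and the transcriptional activator Nlrc5. They were chosen by name, were all matched among the 56941 gene identifiers of the deposited table, and were all among the 19713 genes with enough counts to be tested. RNA was sequenced from dissected rings of the iridocorneal angle, which lies where iris and cornea meet and drains the aqueous humor. Mice of the DBA/2J strain carry mutant alleles of Gpnmb and Tyrp1 and develop pigment dispersion and glaucoma, and DBA/2J-Gpnmb+/SjJ mice (Gpnmb+) are the matched strain with a functional Gpnmb allele on the same background, the Tyrp1 mutation included. There were 3 DBA/2J pools and 2 Gpnmb+ pools, all untreated, aged 12 months and labelled as male and female, a label that the counts do not bear out for every pool. Each pool is described as 3 mice, although the library names list 3 animals per DBA/2J pool but 2 per Gpnmb+ pool.

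MHC class I molecules are found on nearly all nucleated cells. The proteasome cuts proteins to peptides, the TAP transporter moves these into the endoplasmic reticulum, and tapasin (Tapbp) holds the transporter beside an empty heavy chain bound to beta-2 microglobulin (B2m) until a peptide fits. In cells exposed to interferon-gamma, the subunits Psmb8, Psmb9 and Psmb10 take the places of the constitutive Psmb5, Psmb6 and Psmb7, and Nlrc5, together with the RFX proteins, binds class I promoters. In several tissues of the eye class I display is known to be low. DBA/2J mice carry the d haplotype of the MHC, and the reference genome comes from the b haplotype of C57BL/6J, so the reads of H2-K1 and H2-D1 in both genotypes were aligned to the alleles of another strain. The effect of this on the levels was not tested.

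Class I genes share a promoter module in which an X2 box of the TGACG type stands a fixed distance before a Y box of the ATTGG type. It is shown here for the heavy chains and B2m, the members with the highest levels. The window of Tap1, which shares its upstream region with Psmb9, is printed beside them. It lacks this arrangement, because its X2 type and Y type motifs lie on opposite strands, with the Y type motif farther upstream. The sequences are the 250 bases before the RefSeq start of each gene, 5' to 3' on the strand of the gene, taken from the RefSeq promoter table of GRCm38.p6 and placed in GRCm39 by exact match at chr17:34219322-34219571 (minus strand) for H2-K1, chr17:35481820-35482069 (plus) for H2-D1, chr2:121977918-121978167 (plus) for B2m and chr17:34406280-34406529 (plus) for Tap1. The GENCODE models of H2-D1 and Tap1 begin upstream of these windows and span them, and that of B2m begins within its window. The windows are reference sequence and not the d haplotype alleles of these mice. Capitals mark the X2 type motif TGACG, the Y type motif ATTGG and the interferon response type motif (GAAA, any 2 bases, GAAA) on either strand. On the other strand the X2 type motif reads CGTCA and the Y type motif reads CCAAT.
H2-K1: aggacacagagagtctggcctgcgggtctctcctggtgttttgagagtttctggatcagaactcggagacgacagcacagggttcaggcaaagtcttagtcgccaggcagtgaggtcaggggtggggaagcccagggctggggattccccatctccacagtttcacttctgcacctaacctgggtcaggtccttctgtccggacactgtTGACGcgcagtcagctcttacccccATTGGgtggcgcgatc
H2-D1: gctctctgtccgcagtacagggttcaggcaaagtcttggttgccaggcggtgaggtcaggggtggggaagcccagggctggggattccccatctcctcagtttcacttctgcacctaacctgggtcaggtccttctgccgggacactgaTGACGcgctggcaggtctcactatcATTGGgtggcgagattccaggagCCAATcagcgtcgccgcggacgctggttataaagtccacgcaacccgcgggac
B2m: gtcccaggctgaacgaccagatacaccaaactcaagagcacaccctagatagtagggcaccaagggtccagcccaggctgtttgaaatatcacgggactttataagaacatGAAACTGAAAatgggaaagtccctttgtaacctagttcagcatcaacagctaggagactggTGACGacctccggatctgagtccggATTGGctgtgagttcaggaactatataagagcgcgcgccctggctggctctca
Tap1: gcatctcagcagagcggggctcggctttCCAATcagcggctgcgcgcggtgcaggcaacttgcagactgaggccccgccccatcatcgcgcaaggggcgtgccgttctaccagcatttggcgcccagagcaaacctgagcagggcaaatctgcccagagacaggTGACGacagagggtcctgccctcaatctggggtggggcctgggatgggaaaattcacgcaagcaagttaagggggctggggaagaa

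The table held a window for 8 of the 10 members. TGACG was found in H2-K1, H2-D1, B2m, Tap1 and Psmb9, which is 5 of 8, against 17.8% of all 32851 promoter windows. ATTGG was found in 6 of 8, against 33.8% of all windows. In H2-K1, H2-D1 and B2m the TGACG and ATTGG motifs lay on the same strand with their first bases exactly 25 bases apart, at 41 and 16, 101 and 76, and 78 and 53 bases before the start. This spacing was read from the sequences and then counted in all windows, where 0.0913% held it. They belonged to 26 gene symbols, of which H2-M3, a nonclassical class I heavy chain, was the only other class I gene. The interferon response type motif was present only in B2m among the 8, at 139 bases before the start, and in 2.98% of all windows. Only exact matches to this pattern were sought. Interferon response elements of another form, in the heavy chain windows or elsewhere, would be missed. TGACGTCA, in 1.55% of windows, was found in none of the 8. The STAT type motif TTCNNNGAA (N is any base), in 7.02% of windows, was found only in Psmb8, at 97 bases before the start. The RefSeq starts of Tap1 and Psmb9 were 226 bases apart on opposite strands, so their windows overlap. The TGACG match of Tap1 and that of Psmb9 are the same bases, read from opposite strands, and so are their ATTGG matches. The counts out of 8 therefore include each of these sites under both genes. The windows of Tapbp, Psmb8 and Psmb9 also lie inside their GENCODE models. All these matches describe letters in the reference sequence and no binding was measured.

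Counts on genes summed to between 43900661 and 49837758 per pool. The check of the labels was Gpnmb itself, with 1946 to 2234 counts in DBA/2J libraries and 110568 to 129659 in Gpnmb+ libraries. A gene was called at a Benjamini-Hochberg adjusted p of at most 0.05 in edgeR's quasi-likelihood test and a fold change of at least 1.5, and fold changes are DBA/2J over Gpnmb+, so positive log2 values mean more RNA in DBA/2J. This called 0.796% of the genes tested, 0.502% higher and 0.294% lower. The number of called genes, 157, fell to 6, 1, 17 and 2 without DBA/2J pools 1, 2 and 3 and Gpnmb+ pool 2, and was 217 without Gpnmb+ pool 1. The Y-linked genes Ddx3y, Kdm5d, Uty and Eif2s3y ranged from 325 to 4168 counts in DBA/2J but only from 0 to 4 in Gpnmb+, whereas Xist ranged from 0 to 2417 and from 7843 to 9152 counts. The counts go against the male and female label for both Gpnmb+ pools, which held almost no Y-linked RNA, and for DBA/2J pool 2, which held no Xist RNA. Sex and genotype therefore cannot be told apart in any comparison here.

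None of the 10 class I genes was called in either direction, against 0.796% of all genes tested. None had an unadjusted p of at most 0.05 in edgeR, against 15.9% of all genes tested, and none was called by DESeq2 (4.7% of all) or limma-voom (0.964% of all). The estimates were higher in DBA/2J for 4 genes and lower for 6, from -0.23 for H2-D1 to 0.25 for Tap2, with a median of -0.09 against -0.02 over all genes tested. The 95% interval of the fold change lay within 1.5-fold in both directions for 7 of the 10, against 42.6% of all genes tested. The exceptions were H2-D1, Tap1 and Nlrc5, for which a change past 1.5-fold lies within the interval. For 9 of the 10 genes, the pools of a single genotype were farther apart than the genotypes were from each other, as they were for 76.2% of all genes tested.

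**Figure D1:**
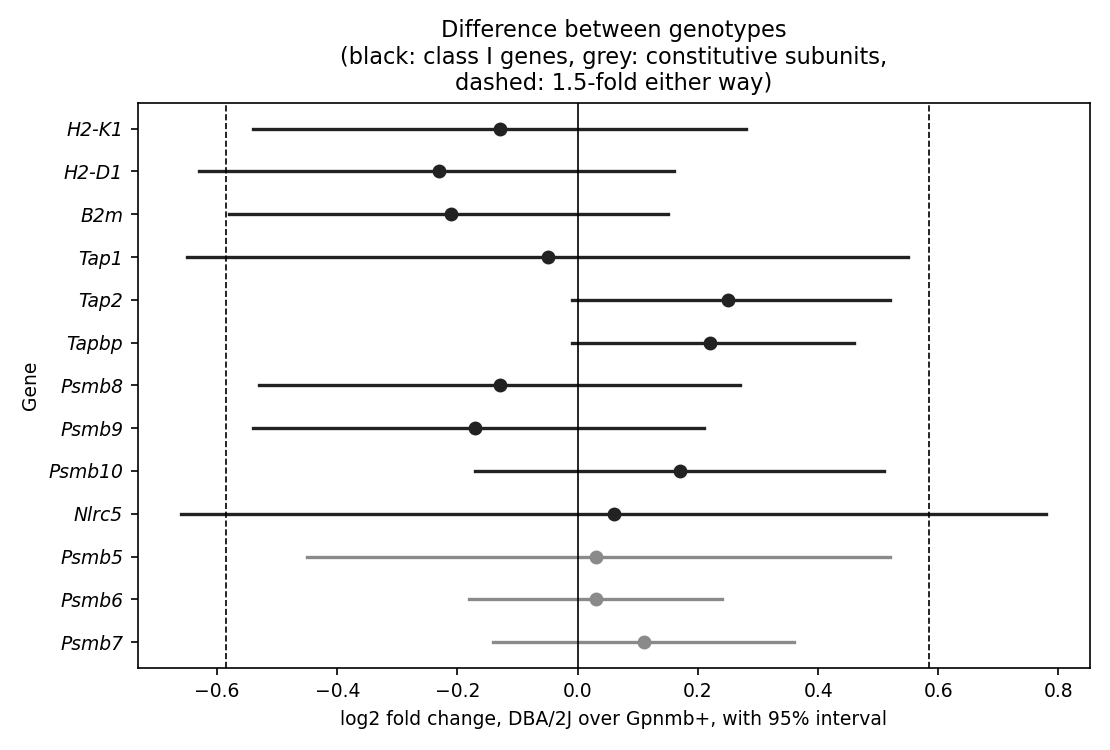
The log2 fold change of each class I gene (black) and constitutive proteasome subunit (grey), DBA/2J over Gpnmb+, with its 95% interval from the edgeR fit to 3 DBA/2J and 2 Gpnmb+ pools; dashed lines mark 1.5-fold. All intervals include 0, and those of H2-D1, Tap1 and Nlrc5 pass a dashed line.

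The levels spanned a wide range. Levels in CPM (counts scaled to library size by TMM) divided by the length of the canonical transcript in kilobases averaged 906 for B2m, 397 for H2-D1 and 254 for H2-K1 over the 5 pools, which placed them at ranks 36, 106 and 184 of the 19613 tested genes with a transcript length. Tapbp followed at 86.9 CPM per kb and Psmb8 at 48.3. Psmb10, Psmb9, Tap1 and Tap2 lay between 14 and 21.3 CPM per kb, and the order of Tap1 (14.2) and Tap2 (14.0) changed between pools. Nlrc5 was the lowest at 0.863 CPM per kb, rank 14149. Together the 10 genes summed to 2658, 2932 and 2273 CPM in DBA/2J, against 3182 and 2624 CPM in Gpnmb+, so the 2 groups overlapped.

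**Figure D2:**
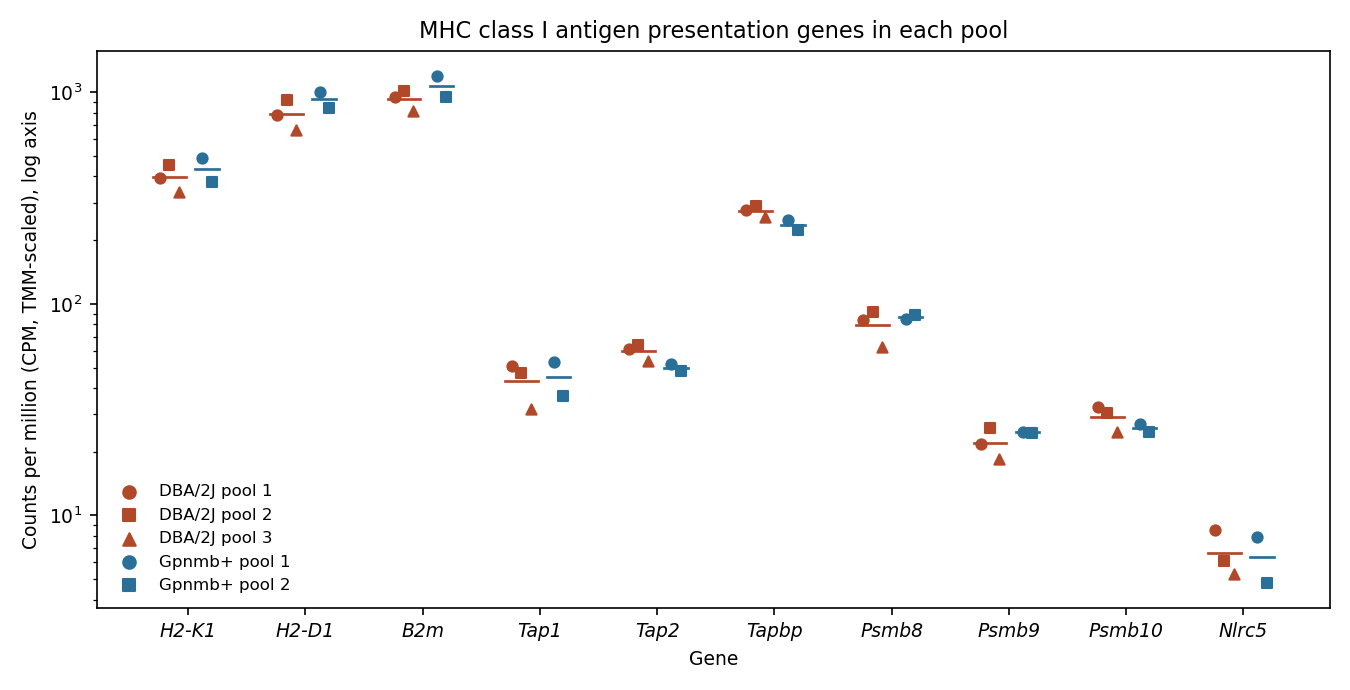
CPM of the 10 genes on a log axis in each of the 3 DBA/2J pools (red) and 2 Gpnmb+ pools (blue), with a bar at the mean of each genotype. Only for Tap2 and Tapbp do the pools of the genotypes not overlap.

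The heavy chains present the peptide and decide which peptides fit. H2-K1 (chr17:34214987-34219321, minus strand, GRCm39) was counted 17564, 19457 and 15087 times in DBA/2J pools 1 to 3, against 24872 and 18406 times in pools 1 and 2 of Gpnmb+. Its mean level was 396 ± 57.5 CPM (SD, n = 3) in DBA/2J and 433 ± 80.6 (n = 2) in Gpnmb+, and the pools overlapped. Its log2 fold change was -0.13 with an SE of 0.17 (edgeR, Benjamini-Hochberg adjusted p = 0.755). H2-D1 (chr17:35481691-35486475, plus strand) was counted 34625, 39225 and 29594 times in DBA/2J, against 50853 and 41343 times in Gpnmb+. Its levels of 785 ± 125 and 924 ± 111 CPM overlapped as well, since DBA/2J pool 2 lay above Gpnmb+ pool 2. The log2 fold change of H2-D1 was -0.23 with an SE of 0.16 and a 95% interval from -0.63 to 0.16 (edgeR, Benjamini-Hochberg adjusted p = 0.541). Of the stretches of 100 bases in the H2-D1 transcript, 4.61% also occurred elsewhere in the reference genome, among others in H2-Q1 and H2-T23, and none of H2-K1 did.

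B2m (chr2:121977957-121983594, plus strand) encodes the light chain that all class I molecules share. Its counts were 42131, 43435 and 36408 in DBA/2J, against 60458 and 46613 in Gpnmb+, or 925 ± 99.7 against 1072 ± 169 CPM. The highest DBA/2J pool was above the lower Gpnmb+ pool. For B2m the log2 fold change was -0.21 with an SE of 0.15 (edgeR, Benjamini-Hochberg adjusted p = 0.543).

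Tap1 and Tap2 together form the transporter that carries peptides into the endoplasmic reticulum. Tap1 (chr17:34405996-34416199, plus strand) had 2266, 2028 and 1422 counts in DBA/2J, against 2705 and 1789 in Gpnmb+, with means of 43.4 ± 10.1 and 44.9 ± 11.8 CPM. Its pools spread 1.67-fold from the highest to the lowest, and its log2 fold change was -0.05 with an SE of 0.24 (edgeR, Benjamini-Hochberg adjusted p = 0.942). Tap1 and Psmb9 overlap on opposite strands, and because the strand used in counting is not given in the sources used here, their reads in the overlap cannot be told apart. Tap2 (chr17:34422501-34435829, plus strand) was at 61.3, 64.2 and 53.4 CPM in DBA/2J, against 52 and 48 CPM in Gpnmb+, from 2727, 2755 and 2380 counts against 2637 and 2348. All DBA/2J pools were above both Gpnmb+ pools, the nearest by a small margin. Tap2 had a log2 fold change of 0.25 with an SE of 0.11 and a 95% interval from -0.01 to 0.52, and was not called (edgeR, Benjamini-Hochberg adjusted p = 0.328).

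Tapbp (chr17:34134873-34148267, plus strand), which bridges the transporter and the heavy chain, gave 277, 289 and 258 CPM in DBA/2J, against 248 and 223 CPM in Gpnmb+. These came from 12299, 12385 and 11522 counts against 12570 and 10887. The genotypes did not overlap, and the log2 fold change was 0.22 with an SE of 0.10 and a 95% interval from -0.01 to 0.46 (edgeR, Benjamini-Hochberg adjusted p = 0.341). Tapbp and Tap2 were the only class I genes with pools that did not overlap, 2 of 10 higher in DBA/2J and 0 lower. Among all genes tested, 17.3% had every DBA/2J pool above both Gpnmb+ pools and 17.2% had every one below. Tapbp overlaps Zbtb22 on the same strand, a gene with at most 1398 counts in a pool.

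The immunoproteasome subunits replace the catalytic subunits of the constitutive core and alter which peptides are made. Psmb8 (chr17:34416690-34420428, plus strand) had 3742, 3912 and 2796 counts in DBA/2J, against 4310 and 4325 in Gpnmb+, or 79.3 ± 14.8 and 86.7 ± 2.46 CPM. Psmb9 (chr17:34400960-34406738, minus strand) had 826 to 1110 counts in DBA/2J, at 21.7, 25.9 and 18.5 CPM, against 1263 and 1201 counts in Gpnmb+, at 24.9 and 24.6 CPM, with means of 22 ± 3.68 and 24.7 ± 0.24 CPM. For each of these genes the Gpnmb+ pools lay close together, inside the range of the DBA/2J pools. The log2 fold change of Psmb8 was -0.13 with an SE of 0.16 (edgeR, Benjamini-Hochberg adjusted p = 0.754) and that of Psmb9 was -0.17 with an SE of 0.15 (adjusted p = 0.65). Psmb10 (chr8:106662362-106665077, minus strand) had 1450, 1303 and 1103 counts in DBA/2J, against 1375 and 1215 in Gpnmb+, or 29.2 ± 4.06 and 26 ± 1.6 CPM. Its estimate had the opposite sign to those of Psmb8 and Psmb9, at 0.17 with an SE of 0.14 (edgeR, Benjamini-Hochberg adjusted p = 0.609).

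The constitutive subunits of the same 3 catalytic positions were not called either. Psmb5 was at 11.8, 9.85 and 7.94 CPM in DBA/2J, against 8.83 and 10.4 CPM in Gpnmb+. Psmb6 had 2866, 2669 and 2603 counts against 2969 and 3053. Psmb7 had 4650, 4053 and 3842 against 4406 and 4364. Their log2 fold changes were 0.03, 0.03 and 0.11, and all 3 intervals lay within 1.5-fold. Within a pool, the log2 ratio of Psmb8 to Psmb5 was 2.83, 3.20 and 2.97 in DBA/2J, against 3.26 and 3.08 in Gpnmb+, a difference of -0.17 (exact two-sided permutation test over pools, p = 0.4). For Psmb9 and Psmb6 the log2 ratio was -1.57, -1.26 and -1.65 against -1.23 and -1.34, a difference of -0.21 (exact permutation p = 0.4). That of Psmb10 to Psmb7 was -1.68, -1.64 and -1.80 against -1.68 and -1.84, a difference of 0.06 (exact permutation p = 0.6). DBA/2J and Gpnmb+ pools overlapped in all 3 ratios, and the smallest p that 3 pools against 2 can give is 0.2. Of the stretches of 100 bases in the Psmb5 transcript, 34.4% occur elsewhere in the genome, as do 4.81% of those in Psmb7. Their counts of uniquely aligned reads may therefore not cover the whole transcripts. Psmb7 also overlaps Nek6 on the opposite strand, a gene with at most 3727 counts in a pool. The strand used in counting is not given, so reads in that overlap cannot be told apart.

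**Figure D3:**
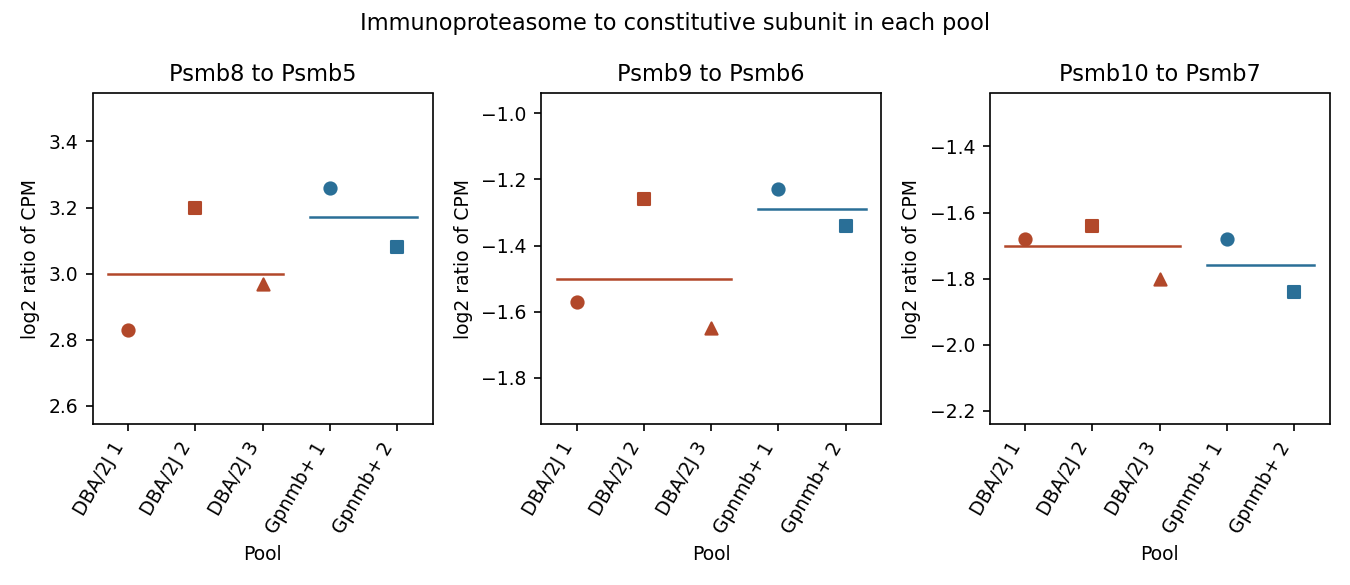
The log2 ratio of CPM between each immunoproteasome subunit and the constitutive subunit it replaces, in each pool, with a line at the mean of each genotype; every panel spans 1 log2 unit. The DBA/2J and Gpnmb+ pools overlap in each panel.

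Nlrc5 (chr8:95160984-95253900, plus strand), a member of the NLR family that activates class I promoters, was the lowest of the 10. It had 380, 262 and 236 counts in DBA/2J, against 402 and 236 in Gpnmb+, or 6.65 ± 1.70 and 6.37 ± 2.19 CPM. Its pools spread 1.77-fold, the widest of the 10 genes, and each genotype held a pool above and a pool below the mean. Its log2 fold change was 0.06 with an SE of 0.30 and a 95% interval from -0.66 to 0.78 (edgeR, Benjamini-Hochberg adjusted p = 0.944). The RFX proteins with which Nlrc5 acts were measured at log2 fold changes of 0.10 (Rfx5), 0.17 (Rfxap) and -0.10 (Rfxank), and Ciita, the related activator of class II genes, at 0.17. None of these was called.

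The lowest values of the 10 genes fell mostly in a single pool, while the highest values were spread over several. DBA/2J pool 3 was the lowest of the 5 pools for 7 genes and Gpnmb+ pool 2 for the other 3 (Tap2, Tapbp and Nlrc5). This was not particular to class I genes. DBA/2J pool 3 was also the lowest in CPM for Psmb5, Psmb6 and Psmb7, and for the other 20S proteasome subunits except Psma4 and Psmb3. The share of all genes tested that were lowest in this pool was not counted. Gpnmb+ pool 1 was the highest for 4 genes, DBA/2J pool 2 for 4 and DBA/2J pool 1 for 2. The median deviation of the 10 genes from their 5-pool means on the log2 CPM scale was 0.07, 0.14 and -0.27 in DBA/2J (pools 1 to 3), against 0.19 and -0.14 in Gpnmb+. The sign of the estimate turned without 1 pool for 4 genes. H2-K1 was at 0.07 without Gpnmb+ pool 1, Tap1 at 0.25 without that pool and 0.13 without DBA/2J pool 3, Psmb8 at 0.02 without DBA/2J pool 3, and Nlrc5 at -0.16 without DBA/2J pool 1 and -0.25 without Gpnmb+ pool 2. The median of the 10 estimates was 0.16 without Gpnmb+ pool 1.

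**Figure D4:**
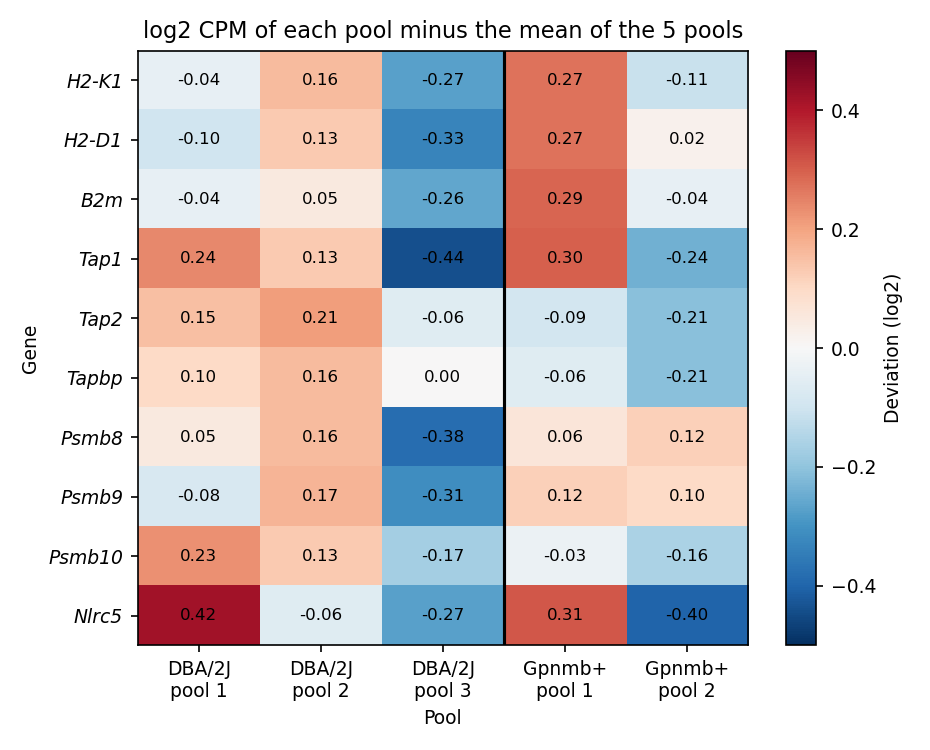
The log2 CPM of each gene in each pool minus its mean over the 5 pools; red is above and blue below the mean, and the black line separates the genotypes. DBA/2J pool 3 and Gpnmb+ pool 1 stand apart for the heavy chains and B2m, at -0.33 to -0.26 and 0.27 to 0.29, while Tap2 and Tapbp are at or above -0.06 in DBA/2J and at or below -0.06 in Gpnmb+.

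The other genes of the pathway were taken from lists, and none of their members was called by edgeR. The 11 other 20S proteasome subunits had a median log2 fold change of 0.06, from -0.08 to 0.15, with 6 higher and 5 lower and every interval within 1.5-fold. The members with the highest mean CPM, not divided by length, were Psmb1 (log2 fold change -0.02), Psma6 (0.08) and Psma2 (-0.01), structural subunits of the core. The 5 activator and assembly genes had a median of -0.01, with Psme1 at -0.01, Psme2 at -0.10 and Pomp at -0.06. Psme1 and Psme2 form the interferon-inducible cap of the proteasome, and Pomp helps to assemble the core.

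The 8 genes of peptide loading and processing in the endoplasmic reticulum all had estimates above 0, with a median of 0.28 (log2) against -0.02 over all genes tested. None was called, 4 of 8 had an unadjusted p of at most 0.05 in edgeR (15.9% of all genes tested), and 6 of 8 had every DBA/2J pool above both Gpnmb+ pools (17.3% of all). The chaperone Calr was at 1192, 1058 and 1143 CPM in DBA/2J, against 1022 and 877 CPM in Gpnmb+, for a log2 fold change of 0.25 with an SE of 0.12 (edgeR, Benjamini-Hochberg adjusted p = 0.372). The disulfide isomerase Pdia3 was at 0.20 and the chaperone Hspa5 at 0.40. Erap1, the aminopeptidase that trims peptides to the length class I molecules accept, was picked out after its values were seen. It was at 156, 136 and 127 CPM in DBA/2J, against 105 and 92 CPM in Gpnmb+. Its log2 fold change was 0.50 with an SE of 0.12 and a 95% interval from 0.21 to 0.79, and it was not called by edgeR (Benjamini-Hochberg adjusted p = 0.133). Its DESeq2 adjusted p was 0.00955, with a fold change under the minimum of 1.5. Most of these 8 genes, Erap1 not among them, also serve protein folding in general, apart from class I.

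Of 20 other class I and class I-like heavy chains, 17 were tested and none was called. The 3 left out, H2-M5, H2-M9 and Azgp1, had at most 5 counts in any pool. The estimates were lower in DBA/2J for 12 and higher for 5, with a median of -0.25. H2-T23, which encodes the nonclassical molecule Qa-1, had 4668, 4619 and 3596 counts in DBA/2J, against 6512 and 6273 in Gpnmb+. The DBA/2J pools were all below the Gpnmb+ pools in CPM, and the log2 fold change was -0.39 with an SE of 0.14 (edgeR, Benjamini-Hochberg adjusted p = 0.256). H2-Q4 was at -0.14 and Fcgrt, the neonatal Fc receptor, at 0.07. Pools did not overlap for 5 of 17 genes lower in DBA/2J and 2 of 17 higher, against 17.2% and 17.3% of all genes tested. Many of the H2-Q and H2-T genes are near copies of each other, so their counts of uniquely aligned reads are uncertain.

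The transcription factors of class I promoters and the interferon pathway were described in the same way. The 21 regulators had a median of 0.02, 12 higher and 9 lower. Irf1, which binds interferon response elements of class I promoters, was at -0.34 with an SE of 0.17. Stat3 was at 0.21 and Nfkb1 at 0.07. Interferon-gamma itself (Ifng) had 1 count in DBA/2J pool 3, 1 in Gpnmb+ pool 1 and 0 in the other pools, and Ifnb1 had 1 count in DBA/2J pool 1 and 0 elsewhere, which is below what this depth can compare. The 9 tested receptor, kinase and SOCS genes had a median of 0.00, with Jak1 at 0.15, Ifngr1 at -0.02 and Ifngr2 at -0.13. The 19 tested interferon-inducible genes had a median of 0.18, with 13 higher and 6 lower. Ifit3 was at 0.63, Oasl2 at -0.48 and Gbp2 at 0.18, and none of the 3 was called. DESeq2, which called 4.7% of all genes tested, called 1 gene in each of these last lists, Socs3 at a log2 fold change of 1.04 and Cxcl10 at 1.19 in edgeR, both picked out here after their values were seen. The summed CPM of the 20 interferon-inducible genes was lowest in DBA/2J pool 3 (592) and Gpnmb+ pool 2 (619) and was 989, 867 and 861 in the other pools.

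All 8 MHC class II genes had estimates above 0, with a median of 0.46 (log2) against -0.02 over all genes tested. None was called, against 0.796% of all genes tested. An unadjusted p of at most 0.05 in edgeR was found for 1 of 8 (15.9% of all). Every DBA/2J pool was above both Gpnmb+ pools for 1 of 8, H2-Oa (17.3% of all). Their summed CPM was 806, 1064 and 722 in DBA/2J, against 767 and 466 in Gpnmb+, so the groups overlapped. Cd74, the invariant chain, was at 0.52 with an SE of 0.24, H2-Aa at 0.48 and H2-Eb1 at 0.43.

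**Figure D5:**
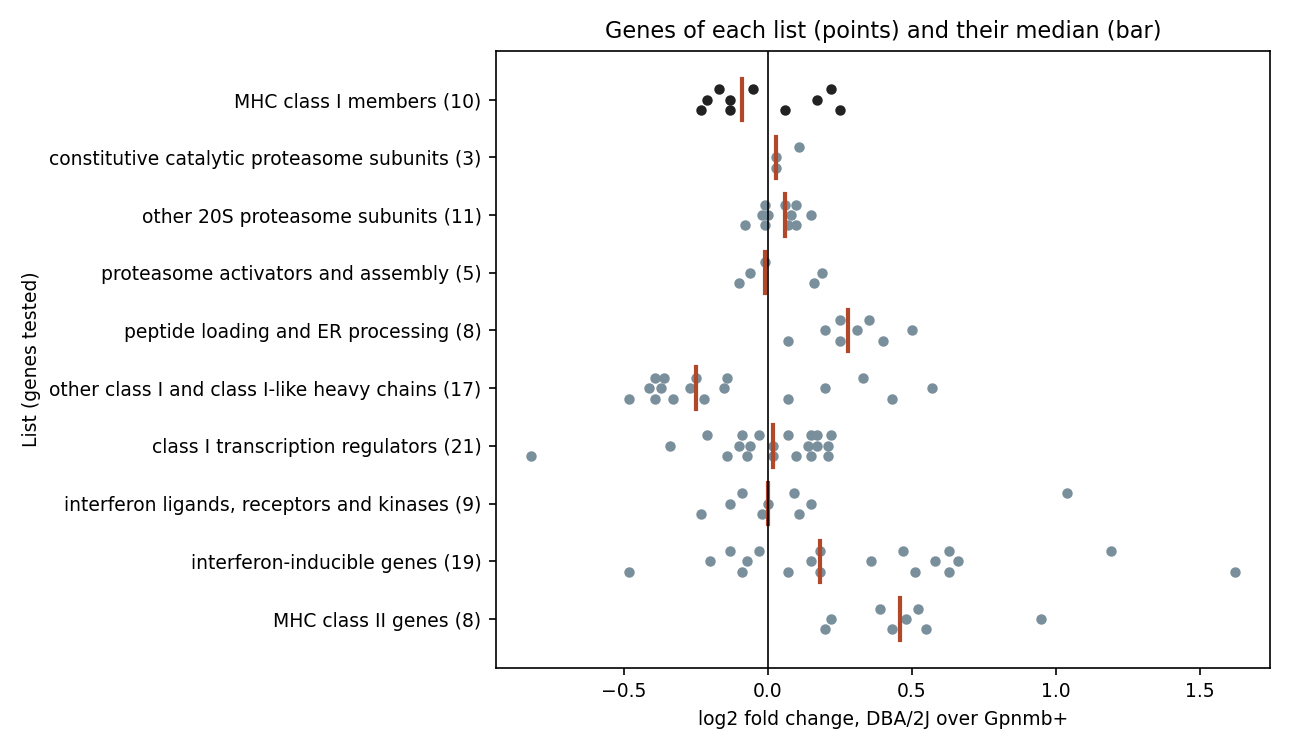
The log2 fold change of every tested gene (points) in the class I set (black) and the related lists (grey), with the median of each list as a red bar and the number tested in parentheses. The class I genes lie between -0.23 and 0.25, and loading factors and class II genes are all above 0.

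Markers of cells that carry much MHC protein were measured beside these results, and in bulk tissue fewer cells of a type and less RNA per cell cannot be told apart. The 4 leukocyte markers were all estimated higher in DBA/2J (median 0.33), with summed CPM of 388 to 493 in DBA/2J and 321 to 384 in Gpnmb+. Of 9 macrophage markers, 8 were higher (median 0.28), and the sums were 3224 to 4296 against 3067 to 3897, set mostly by Lyz2. Of 8 dendritic cell markers, 7 were higher (median 0.80), at 33.1 to 38.7 against 25.1 to 25.9 CPM in all. Of 12 T and NK cell markers, 6 were higher and 6 lower (median -0.02), with sums of 25.8 to 42.9 against 24 to 33.3. All 5 tested B and plasma cell markers were lower (median log2 fold change -1.0), and their sums were 6.08 to 13.4 against 12.7 to 15.5. None of the markers in these 5 lists was called by edgeR. DESeq2 called the dendritic cell markers Ccr7 (2.38) and Itgae (1.15) higher in DBA/2J, and the T and NK cell marker Gzma (-1.12) and the B cell marker Ms4a1 (-1.28) lower, as log2 fold changes in DESeq2, against 4.7% of all genes tested. These 4 were picked out after their values were seen. Only Mzb1 of the B and plasma cell list was at 0 in any pool. Endothelial markers had a median of 0.13 with 4 of 7 higher, and summed CPM of 415 to 551 against 429 to 459. The part of these cells in the levels of the class I genes was not tested.

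The tissue label was checked in the same way. The trabecular meshwork markers were detected in all pools, with summed CPM of 4175 to 5134 in DBA/2J and 2620 to 3313 in Gpnmb+, where Chil1 had the highest mean. Estimates were lower in DBA/2J for 5 of the 7 and higher for 2, with a median of -0.18. Myoc was at -1.06, Angptl7 at -0.82 and Rspo4 at -1.92, each with all DBA/2J pools below both Gpnmb+ pools, and Chil1 was at 1.17. DESeq2 called Chil1 and Cyp1b1 higher and Myoc and Rspo4 lower. In edgeR Cyp1b1 alone was called, higher in DBA/2J at a log2 fold change of 0.81 (edgeR, Benjamini-Hochberg adjusted p = 0.0467). The corneal epithelial keratin gene Krt12 had 11298, 4970 and 421 counts in DBA/2J, against 86337 and 27106 in Gpnmb+. At -3.16 on the log2 scale, this difference was not called (edgeR, Benjamini-Hochberg adjusted p = 0.27). DBA/2J pool 3, the lowest for most class I genes, was also the lowest for Krt12, Krt5 and Aldh3a1 but the highest for Pax6 (439.5 CPM). Gpnmb+ pool 1, the highest for the heavy chains and B2m, was the highest for Krt12 and Krt5, while Gpnmb+ pool 2 was the highest for Aldh3a1 (2114 CPM). Summed over 4 corneal epithelial markers, the pools gave 5280, 5698 and 3395 CPM in DBA/2J, against 7486 and 6005 CPM in Gpnmb+. The share of corneal epithelium in the class I levels was not tested.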

How the data were processed

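RNA was sequenced from 5 pools of iridocorneal angle tissue, 3 DBA/2J and 2 Gpnmb+, with the genotype and pool number of each taken from its title. After trimming (fastp) and alignment to GRCm39 (STAR), the authors summed the uniquely aligned reads of each gene, and the deposited values are these raw counts, not scaled to depth. Per-sample columns not used numbered 0. Names, positions and lengths came from GENCODE mouse release M39, which held 56323 of the 56941 identifiers, and promoter windows from RefSeq.

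Genes that reached 10 counts in 1 or more pools were tested in edgeR 4.0.16 (R 4.3.3) by the quasi-likelihood test after TMM scaling, with no covariate, and p-values were adjusted by Benjamini-Hochberg over all genes tested. Log2 CPM used a prior count of 2. Intervals are at the 95% level from the same fit. They were checked on simulated counts whose spread followed its trend over expression level. The simulation held no spread particular to a gene and no difference in sex or tissue between pools, so the check does not extend to these. DESeq2 1.42.0 and limma 3.58.1 were alternatives, with DESeq2's size factors, other count filters, no fold change minimum, unadjusted p-values, the pool number as a block and each pool left out. Per-pool ratios used exact permutation tests (scipy 1.17.1). P-values measure spread between pools, which already average several mice.

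The members, lists and tests were chosen with earlier results of these data known. Genes named from each list were those called and then those with the highest mean CPM up to 3, with Rfx5, Rfxap, Rfxank and Ciita added. Other genes of these lists were named after their values were seen. Results for some genes are left out. Searching for stretches of transcript elsewhere used both strands of GRCm39. The proteomics were not analysed here.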

Additional observations from a re-analysis of the deposited data

How the results depend on the processing

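None of the 10 class I genes was called under any of the 13 alternatives to edgeR's main settings, and 122 of 130 values of single genes kept their direction. The other 8 turned sign: Tap1 (0.15) and Psmb8 (0.02) with the pool number as a replicate block, and H2-K1 (-0.31 to 0.07), Tap1 (-0.30 to 0.25), Psmb8 (-0.24 to 0.02) and Nlrc5 (-0.25 to 0.47) over fits without 1 pool. The settings with no fold change minimum and with unadjusted p-values reuse the estimates of the main fit, so their values could not turn sign. The median of the 10 ranged from -0.21 to 0.16 without 1 pool. Of the related lists, 2 genes were called by DESeq2 (Socs3 and Cxcl10) and 4 with unadjusted p-values (with Cxcl11 and H2-Oa added), against 0 otherwise. The log2 ratio of Psmb10 to Psmb7 differed by -0.03 to 0.14 without 1 pool, turning sign without Gpnmb+ pool 2. Over all genes, 927 were called by DESeq2, 360 without a count filter, 1710 with unadjusted p-values and 1 to 217 without 1 pool. The cause of these differences was not tested. Deviations from the genotype means correlated between same-numbered pools (r = 0.279 and 0.254 over 19713 genes). With only 2 Gpnmb+ pools, the deviation of 1 is that of the other with its sign turned, so these values of r are not independent. The pools share only a number, and the block changed no call of a class I gene. Restricting the ratios to the pools with a shared number was chosen after seeing the data. Without a Gpnmb+ pool, the remaining pool was assumed to vary like the DBA/2J pools.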

Other observations

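Ratios between class I genes within a pool, chosen after their values were seen and given with no test, varied less than the genes themselves for some pairs and more for others. H2-K1, H2-D1 and B2m each differed 1.45- to 1.51-fold between the highest and the lowest pool. The log2 ratio of H2-K1 to B2m stayed between -1.34 and -1.16 over the 5 pools and that of H2-D1 to B2m between -0.30 and -0.15. The log2 ratio of Psmb8 to Psmb9 spanned 0.20, from 1.76 to 1.96. That of Psmb8 to Psmb10 was 1.37, 1.58 and 1.34 in DBA/2J, against 1.65 and 1.83 in Gpnmb+. The genotypes did not overlap for this ratio, for H2-K1 to B2m or for H2-K1 to H2-D1. They overlapped for the other pairs in this section. How often ratios of other genes separate in this way was not computed.

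The 2 transporter subunits varied more against each other. The log2 ratio of Tap1 to Tap2 was -0.27, -0.44 and -0.74 in DBA/2J (pools 1 to 3), against 0.04 and -0.39 in Gpnmb+, a span of 0.78. Tap1 and Psmb9, whose starts lie 226 bases apart on opposite strands, had a log2 ratio of 1.23, 0.87 and 0.78 in DBA/2J, against 1.10 and 0.57 in Gpnmb+, a span of 0.66.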
